A study of Mus musculus with 36 samples.

Results

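The nuclear genes of the mitochondrial respiratory chain and ATP synthase were followed in mouse hypothalamus. They were chosen by symbol, as subunit genes of complex I (Nduf), II (Sdh), III (Uqcr and Cyc1), IV (Cox4 to Cox8) and V (Atp5), without pseudogenes and with a mean normalised count of at least 1. Among 22447 listed genes, 90 had such a name, 5 of them pseudogenes, and 85 were kept: 38 of complex I, 4 of complex II, 9 of complex III, 17 of complex IV and 17 of complex V. No gene was lost to the limit on the mean, and 20505 genes of the whole table passed it. The name decides the complex, so Ndufa4, whose protein sits in complex IV, is counted under complex I. Atp5s and Atp5sl are counted under complex V by name alone, which does not make them subunits of ATP synthase.

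RNA from 19 mouse hypothalamus samples was sequenced to ask what CRISPR activation of Sim1 changes in animals that carry a single working copy of it. The groups were wild type without sgRNA (5 libraries), Sim1 +/- without sgRNA (4), Sim1 +/- with an sgRNA for the Sim1 promoter (6) and Sim1 +/- with an sgRNA for a Sim1 enhancer (4). Each library is named by sex and number, as in F_3. Wild type F_2 and Sim1 +/- F_3 were of strain B6 and all others of B6/FVB, and ages ran from 3 to 9 months. Wild-type F_1 and F_2 were 7 months old, F_3 was 4, F_4 was 3 and M_1 was 9. Sim1 +/- F_1 was 7, F_3 and F_4 were 4 and M_1 was 9. In the promoter sgRNA group F_5 and M_3 were 3, F_3 was 4, F_1 was 7, F_2 was 8 and M_1 was 9, and in the enhancer sgRNA group F_1 and M_1 were 6, F_2 was 7 and M_3 was 3. How the activator and guides were delivered, and which cells make them, the sources used here do not say. Every library of a group differs from the others of that group in sex, age or strain, so they came from different animals. The labels do not say whether a library holds RNA of a single animal or of several. A p-value here sets a group difference against the spread between libraries, in which biological and technical parts cannot be separated.

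Complexes I, III and IV pass electrons to oxygen and pump protons across the inner mitochondrial membrane, complex II feeds in electrons from succinate without pumping, and complex V uses the proton gradient to make ATP. Most subunits are encoded in the nucleus and a few in mitochondrial DNA, and both sets are built into the same complexes. A small set of core subunits holds the flavin, iron-sulphur and haem groups and does the chemistry, while many short accessory subunits surround it. In brain this chain supplies most of the ATP that neurons use. NRF1, GABPA, YY1 and ERR alpha are transcription factors long linked to the promoters of such genes, acting with the coactivator encoded by Ppargc1a.

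Sim1 itself measured 422 ± 94.6 (mean ± SD, normalised count) in wild type, 211 ± 92.6 in Sim1 +/-, 246 ± 108 with the promoter sgRNA and 300 ± 36.1 with the enhancer sgRNA. Recovered depth ran from 14.1 M to 84.8 M reads per library. The tissue held neuronal RNA in every library, the 12 neuronal markers summing to between 156906 and 270334 normalised counts, lowest in Sim1 +/- F_3. That library stood apart from the rest, and most group counts, list medians and fold changes that it moves are given with and without it. A fold change of a gene given only once is from all 19 libraries unless said otherwise, and Sim1 +/- F_3 may move it.

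The promoter letters come first, since 67 of the 85 genes had a RefSeq promoter of GRCm38.p6 (250 bases before to 50 after the start). Motifs were searched on both strands as GCGCANGCG for NRF1, CCGGAAG for GABPA, AAGATGGC for YY1 and AAGGTCA for ERR alpha. NRF1 letters stood in 20 of the 67 (29.9%), against 7.03% of all 27025 genes with a promoter and 12.8% of the 12690 tested protein-coding genes. GABPA letters stood in 16 (23.9%, against 9.93% and 16.5%), YY1 letters in 9 (13.4%, against 3.19% and 4.38%) and ERR alpha letters in 8 (11.9%, against 5.38% and 4.29%). At least 1 of the 4 was found in 38 genes (56.7%, against 22.4% and 32.3%), 3 genes had 3 of the 4, none had all, and 29 had none. A match describes letters in this window and is not evidence of binding. The 6 promoters shown here are those of Atp5k, Sdhd and Uqcr11, which carry motifs of 2 or 3 factors and were highest in Sim1 +/- F_3, of Cox6a1 and Sdha, which carry several NRF1 matches, and of Atp5b, which carries none of the 4. Capitals mark motif letters on either strand, 5′ to 3′ in the direction of the gene. The NRF1 letters can match on both strands at the same place, so 2 matches overlap in Atp5k and in Cox6a1, and no match of 1 factor overlapped another factor's in these 6.
Atp5k (chr5:108434350-108434649, minus strand): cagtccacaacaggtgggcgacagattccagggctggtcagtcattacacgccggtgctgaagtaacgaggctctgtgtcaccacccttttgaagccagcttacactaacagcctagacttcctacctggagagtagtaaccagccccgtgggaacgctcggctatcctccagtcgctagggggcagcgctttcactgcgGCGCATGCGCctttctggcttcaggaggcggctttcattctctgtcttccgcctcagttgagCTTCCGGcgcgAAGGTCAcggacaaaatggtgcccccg
Uqcr11 (chr10:80406772-80407071, minus strand): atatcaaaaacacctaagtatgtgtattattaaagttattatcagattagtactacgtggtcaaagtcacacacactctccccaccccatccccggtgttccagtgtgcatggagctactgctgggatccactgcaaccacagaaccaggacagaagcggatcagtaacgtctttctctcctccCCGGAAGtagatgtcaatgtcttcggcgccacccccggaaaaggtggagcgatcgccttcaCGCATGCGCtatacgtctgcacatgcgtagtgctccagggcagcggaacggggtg
Sdhd (chr9:50603800-50604099, minus strand): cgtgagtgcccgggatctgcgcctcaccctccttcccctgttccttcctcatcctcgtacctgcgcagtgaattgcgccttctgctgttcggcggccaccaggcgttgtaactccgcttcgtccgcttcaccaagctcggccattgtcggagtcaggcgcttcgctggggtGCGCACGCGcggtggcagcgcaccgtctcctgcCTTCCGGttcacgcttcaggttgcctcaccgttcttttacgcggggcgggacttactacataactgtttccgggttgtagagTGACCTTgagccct
Cox6a1 (chr5:115348909-115349208, minus strand): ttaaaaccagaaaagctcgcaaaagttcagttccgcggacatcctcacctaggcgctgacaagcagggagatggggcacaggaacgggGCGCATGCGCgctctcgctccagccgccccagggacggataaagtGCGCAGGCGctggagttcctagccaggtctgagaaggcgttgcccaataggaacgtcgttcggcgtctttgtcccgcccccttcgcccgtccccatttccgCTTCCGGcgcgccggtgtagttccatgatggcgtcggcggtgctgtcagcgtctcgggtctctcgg
Sdha (chr13:74350191-74350490, minus strand): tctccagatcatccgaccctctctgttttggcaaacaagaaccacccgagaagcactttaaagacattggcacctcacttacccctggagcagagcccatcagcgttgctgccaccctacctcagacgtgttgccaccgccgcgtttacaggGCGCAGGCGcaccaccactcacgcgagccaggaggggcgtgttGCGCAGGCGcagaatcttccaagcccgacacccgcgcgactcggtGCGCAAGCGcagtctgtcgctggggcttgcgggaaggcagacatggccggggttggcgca
Atp5b (chr10:128083057-128083356, plus strand): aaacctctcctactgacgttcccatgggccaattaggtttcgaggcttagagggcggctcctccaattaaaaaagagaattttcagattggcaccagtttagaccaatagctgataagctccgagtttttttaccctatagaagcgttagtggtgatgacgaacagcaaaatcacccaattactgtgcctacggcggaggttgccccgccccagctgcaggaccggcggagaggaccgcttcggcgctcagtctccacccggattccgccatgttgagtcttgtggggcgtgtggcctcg

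In Atp5k the GABPA and ERR alpha letters lie just past the start, at bases 263 to 269 and 274 to 280 of the 300, counted from the 5′ end with the start of the gene after base 250, and its NRF1 letters at 201 to 210. In Sdha the 3 NRF1 matches lie before the start, at bases 153 to 161, 196 to 204 and 241 to 249. Sdha and Atp5k share the NRF1 letters and behaved differently in Sim1 +/- F_3, where Atp5k was 1.72 and Sdha -0.15 from the median of the other libraries (log2). Of the 57 genes with a promoter that were higher in Sim1 +/- F_3 than in all other libraries, 35 (61.4%) held at least 1 motif, and of the other 10, 3 did (30.0%). No test was made of that difference, and those 10 were Sdha, Atp5b, Ndufv1, Uqcrc1, Ndufa10, Atp5d, Atp5g1 and the low-count genes Cox8b, Atp5l and Cox7b2.

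No gene of the chain was called in any of the 6 comparisons between groups. A call was an adjusted p under 0.05 (limma on log2(normalised count + 1), Benjamini-Hochberg over all 20505 genes), and 0 of 85 passed in each, where 0% of all genes did. The smallest adjusted p among the 85 was 0.868 for Sim1 +/- against wild type, 0.934 for the promoter sgRNA against Sim1 +/-, 0.678 for the enhancer sgRNA against Sim1 +/-, 0.999 for enhancer against promoter sgRNA, and 0.9999 and 0.9997 for the promoter and enhancer sgRNA against wild type. edgeR and DESeq2 on recovered reads also called 0 of the 85 in each comparison. Of all genes, edgeR called 0 in each comparison and DESeq2 called 7 for Sim1 +/- against wild type, 3 for the promoter and 13 for the enhancer sgRNA against Sim1 +/-, and 0 in the other comparisons. At an unadjusted p under 0.05, limma counted 1 of 85 higher in Sim1 +/- than in wild type (2.02% of all genes higher, 1.72% lower), and 1 higher with the promoter sgRNA than in Sim1 +/- (1.39% of all genes higher, 2.68% lower). Against Sim1 +/-, 10 were lower with the enhancer sgRNA (2.9% of all genes higher, 3.77% lower). None passed that level for enhancer against promoter sgRNA (1.09% of all genes higher, 1.36% lower), promoter sgRNA against wild type (0.931% higher, 1.18% lower) or enhancer sgRNA against wild type (0.424% higher, 0.839% lower). These counts turned on single libraries. For Sim1 +/- against wild type, 3 genes were lower and none higher without Sim1 +/- F_3 (2.87% of all genes in either direction), none passed without F_4 (3.39%), and 38 were higher without F_1 (9.93%) and 33 without M_1 (7%). For the promoter sgRNA against Sim1 +/-, none passed without F_3 (3.27%), while 2 were higher and 10 lower without F_1 (9.23%) and 6 lower without M_1 (4.01%). The 10 genes lower with the enhancer sgRNA than in Sim1 +/- became 0 without F_3 (3.36%) or without F_4 (6.43%), 34 lower and 1 higher without F_1 (13.9%) and 41 lower without M_1 (9.67%). Without enhancer sgRNA F_1 or F_2, 1 passed, and the share of all genes was not counted there. With Sim1 +/- F_3 left out of the shared fit, 4 were lower for enhancer against promoter sgRNA (3.62%), and 1 was higher and 1 lower for the promoter sgRNA against wild type (2.6%). The Sim1 +/- libraries enter 3 of the comparisons and the wild type 3, so these are not independent of each other.

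The signs leaned together more than the sizes. In Sim1 +/- against wild type 76 of the 85 genes had a positive log2 fold change with a median of 0.28, where 48.8% of all genes were positive. Leaving out Sim1 +/- F_3 left 66 of 85 positive and a median of 0.05. With the promoter sgRNA against Sim1 +/-, 72 of 85 were negative and the median was -0.16, and without that library 60 of 85 were positive and the median was 0.06. For the enhancer sgRNA against Sim1 +/-, 70 of 85 were negative with a median of -0.29, and without the library 63 were negative with a median of -0.08. The median of all genes lay within 0.01 of 0 in each comparison. These medians are smaller than, or close to, the pooled SD of 0.28 between libraries of a group in the median deviation of the 85 genes. That SD includes Sim1 +/- F_3. By group it was 0.54 in Sim1 +/- (0.29 without F_3), 0.19 in wild type, 0.17 with the promoter and 0.07 with the enhancer sgRNA. It describes single libraries and is not a standard error of a group difference.

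The level by library shows which samples carry these signs. For each library the deviation of a gene is its log2(normalised count + 1) minus its mean over the 19 libraries, and the library's level is the median over the 85 genes. It was -0.18, 0.09, -0.07, 0.19 and -0.30 in wild type (F_1 to F_4, then M_1), a mean of -0.05 ± 0.19 (SD, n = 5). In Sim1 +/- F_1, F_3, F_4 and M_1 it was -0.14, 0.93, 0.30 and -0.26, a mean of 0.21 ± 0.54 (n = 4), or -0.03 ± 0.29 (n = 3) without F_3. The promoter sgRNA libraries (F_1 to F_3, F_5, then M_1 and M_3) had -0.24, 0.06, 0.16, 0.06, 0.24 and -0.08, a mean of 0.03 ± 0.17 (n = 6). The enhancer sgRNA libraries (F_1 and F_2, then M_1 and M_3) had -0.06, -0.11, -0.20 and -0.21, a mean of -0.15 ± 0.07 (n = 4), all below 0 and with the smallest spread of the 4 groups. All groups overlapped, and Sim1 +/- F_3 lay above the other 18 libraries, whose levels ran from -0.30 to 0.30.

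**Figure D1:**
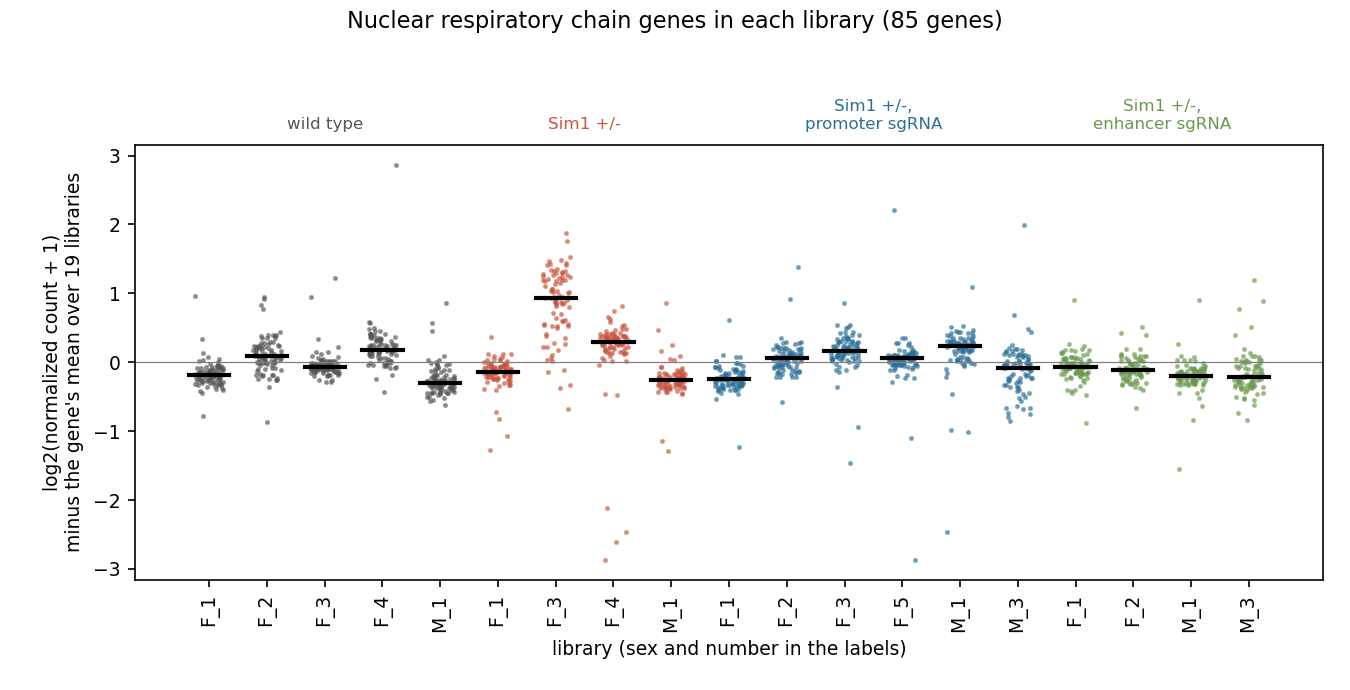
Each dot is 1 of the 85 genes in 1 library, as log2(normalised count + 1) minus the gene's mean over 19 libraries, and black bars are library medians, coloured by group. Sim1 +/- F_3 has a median of 0.93, and the other libraries lie between -0.30 and 0.30.

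In Sim1 +/- F_3 the 85 genes took 2.06% of all normalised counts, against 1.11 to 1.49% in the other 18 libraries. There 70 of the 85 genes (82.4%) reached their highest value, where 20.3% of all genes tested were above all other libraries in it. The median of the 85 was 1.00 above the median of the other libraries on the log2 scale, and 80 of 85 were above it. Without Sim1 +/- F_3 the ages overlapped in level but differed in median. The 7 libraries of 3 to 4 months had levels from -0.21 to 0.30 (median 0.06). The 11 of 6 to 9 months had levels from -0.30 to 0.24 (median -0.14). That difference was not tested, and ages were not spread evenly over the groups. Sim1 +/- F_3 was one of 2 libraries of strain B6, and wild type F_2, the other, had a level of 0.09. The other libraries of 4 months were wild type F_3, Sim1 +/- F_4 and promoter sgRNA F_3, with levels of -0.07, 0.30 and 0.16. Sim1 +/- F_3 was the only library of strain B6 at 4 months, and that combination cannot be told apart from the library itself. In the authors' stabilized log2 values, whose formula is not stated, the level of Sim1 +/- F_3 was 0.30 and that of promoter sgRNA M_1 was 0.44.

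Within that library the excess was uneven, and in complexes I and III it differed by the role of the subunit. The 29 accessory subunits of complex I were higher there than the median of the other libraries by a median of 1.11 (log2), and 28 of them exceeded every other library. The 7 nuclear core subunits, which build the arm that carries the flavin and iron-sulphur clusters, were higher by a median of 0.37. Of these 7, 5 exceeded every other library. The roles overlapped, with core subunits from -0.37 to 1.01 and accessory subunits from 0.04 to 1.72. In complex III the 4 catalytic and core subunits had a median of 0.28 and the 5 other small subunits 1.44. Of the 4, 2 exceeded every other library, as did all 5 of the others. The medians were 0.59 in complex II, 1.18 in complex IV and 0.65 in complex V. Complex V did not show a clear split by role. Its catalytic and rotor subunits were Atp5a1 at -0.13, Atp5b at 0.03, Atp5c1 and Atp5d at 0.57 and Atp5e at 2.04. Across libraries the accessory median minus the core median of complex I ran from -0.24 to 0.25 in the other 18 and was 0.67 in Sim1 +/- F_3. Wild type F_2 and F_4, at 0.25 and 0.22, came next in that difference.

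**Figure D2:**
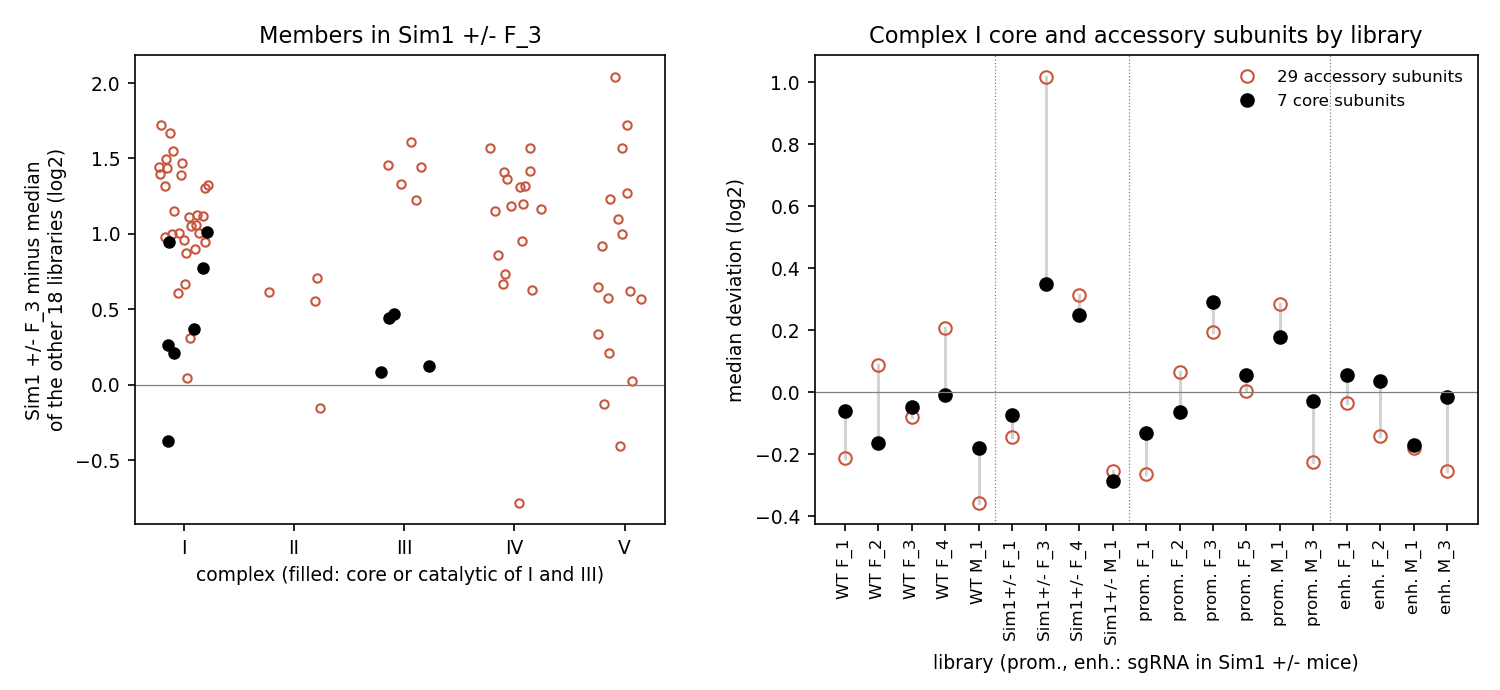
Left, each gene in Sim1 +/- F_3 minus the median of the other 18 libraries (log2) by complex, with filled dots for core or catalytic subunits of complexes I and III; right, the median deviation of 7 core and 29 accessory subunits of complex I in each library. The accessory median in Sim1 +/- F_3 is 1.02 and the core median 0.35.

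Atp5e, the epsilon subunit of the F1 rotor, showed the largest excess, 2.04 on the log2 scale. Atp5e measured 2199.5, 3216, 2735, 4131 and 1928 normalised counts in wild type (F_1 to F_4, then M_1) and 2252, 10175, 4365 and 2109 in Sim1 +/- (F_1, F_3 and F_4, then M_1). The 6 promoter sgRNA libraries lay between 1898 and 3513 (median 2875), and the counts were 2556, 2382, 2222 and 1546 with the enhancer sgRNA (F_1 and F_2, then M_1 and M_3). Apart from Sim1 +/- F_3 the groups overlapped. Its log2 fold change for Sim1 +/- against wild type was 0.50 (SE 0.32, adjusted p = 0.868) and 0.05 without F_3. For the enhancer sgRNA against Sim1 +/- it was -0.72 (SE 0.34, adjusted p = 0.678) and -0.31 without F_3.

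Atp5k, the e subunit of the membrane part of ATP synthase, stood 1.72 above, next after Ndufs5 at 1.72, a gene of few reads, its promoter being the first of those printed above. Its normalised counts were 2233, 3316, 2406, 3034 and 1776 in the wild-type libraries and 2366, 7885, 3803 and 2110.3 in the Sim1 +/- libraries. Atp5k reached 2180.5 to 3945 (median 2836) with the promoter sgRNA, and was 2424, 2323, 2203 and 2186 in the enhancer sgRNA libraries. Sim1 +/- F_3 was again the highest library, with promoter sgRNA M_1 and Sim1 +/- F_4 next. Uqcr11, a small subunit of complex III, stood 1.61 higher in F_3 than the median of the others. Normalised counts of Uqcr11 were 1669, 2044, 1612, 2328 and 1552 in the wild-type libraries and 1586, 5273, 2551 and 1473 in the Sim1 +/- libraries. Promoter sgRNA values of Uqcr11 had a median of 2088 (lowest 1655, highest 2510.5), beside 1764, 1689, 1618 and 1531 in the enhancer sgRNA libraries. The 4 enhancer sgRNA libraries lay close together, F_1, F_2 and M_1 within the wild-type range and M_3 just below it.

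Cox4i1, the broadly expressed isoform of the nuclear subunit that regulates complex IV, lay 1.37 above. Cox4i1 measured 14727, 22260.3, 15865, 21536 and 14502 normalised counts in the wild-type libraries and 15065, 43023, 21568 and 15458 in the Sim1 +/- libraries. With the promoter sgRNA Cox4i1 ran from 13636 to 21488 with a median of 19146, and it was 16500.1, 16898, 14663 and 14545 in the enhancer sgRNA libraries. The next 4 libraries after F_3 lay close together and came from 3 groups. Ndufa4 stood 1.47 above. Its normalised counts were 5127, 8019, 6184, 8412 and 5063 in the wild-type libraries and 5647, 16165, 7991 and 5473 in the Sim1 +/- libraries. The 6 promoter sgRNA libraries lay between 5205 and 7939 (median 7180.1), and the counts were 5386, 5849, 5314 and 5514 in the enhancer sgRNA libraries. Its fold change for the enhancer sgRNA against Sim1 +/- was -0.47 (SE 0.25, adjusted p = 0.678), and -0.16 without F_3.

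Several catalytic genes stood near the other libraries in Sim1 +/- F_3. Atp5b, which encodes the catalytic beta subunit of ATP synthase and whose promoter above carries none of the 4 motifs, was 0.03 from the median of the others in Sim1 +/- F_3. Normalised counts of Atp5b were 41238, 38507, 43211, 44441 and 43629 in the wild-type libraries and 43228, 44356, 48871 and 36899.8 in the Sim1 +/- libraries. Atp5b reached 40323 to 49277 (median 45788) with the promoter sgRNA, and was 45426, 46474, 39160.5 and 45134 in the enhancer sgRNA libraries. All 4 groups overlapped, and the fold change for Sim1 +/- against wild type was 0.04 (SE 0.12, adjusted p = 0.963) with a 95% interval of -0.21 to 0.28.

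Sdha, the flavoprotein of complex II that oxidises succinate, was -0.15 in the same measure, with 3 NRF1 matches in its promoter. Sdha measured 20182, 16892, 19410.4, 18321 and 18656 normalised counts in the wild-type libraries and 20819, 17437, 19459 and 18087 in the Sim1 +/- libraries. Promoter sgRNA values of Sdha had a median of 19071 (lowest 17625, highest 21597), beside 21965, 20500.4, 19678 and 18544 in the enhancer sgRNA libraries. All 4 groups overlapped. The fold change for the enhancer sgRNA against Sim1 +/- was 0.10 (SE 0.11, adjusted p = 0.776), with a 95% interval of -0.12 to 0.33.

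Ndufs1, the largest iron-sulphur subunit of complex I, was lowest in Sim1 +/- F_3. Its normalised counts were 5898, 5152, 5596, 5554 and 5930.5 in the wild-type libraries and 6272, 4569.5, 5629.5 and 4983 in the Sim1 +/- libraries. With the promoter sgRNA Ndufs1 ran from 5716 to 6711 with a median of 6057, and it was 6206, 6213, 5373 and 6148 in the enhancer sgRNA libraries. Its fold change for the promoter sgRNA against Sim1 +/- was 0.19 (SE 0.09, adjusted p = 0.934) and 0.12 without F_3. Uqcrc1, a core subunit of complex III, overlapped among all groups. Normalised counts of Uqcrc1 were 9149.5, 7871, 9066, 8964 and 9001 in the wild-type libraries and 9236, 9998, 10804 and 8032 in the Sim1 +/- libraries. The 6 promoter sgRNA libraries lay between 8269 and 11497 (median 9427), and the counts were 10349.9, 9878, 8593 and 9267 in the enhancer sgRNA libraries. Its fold changes were 0.11 for Sim1 +/- against wild type, 0.0012 for the promoter and 0.03 for the enhancer sgRNA against Sim1 +/-.

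**Figure D3:**
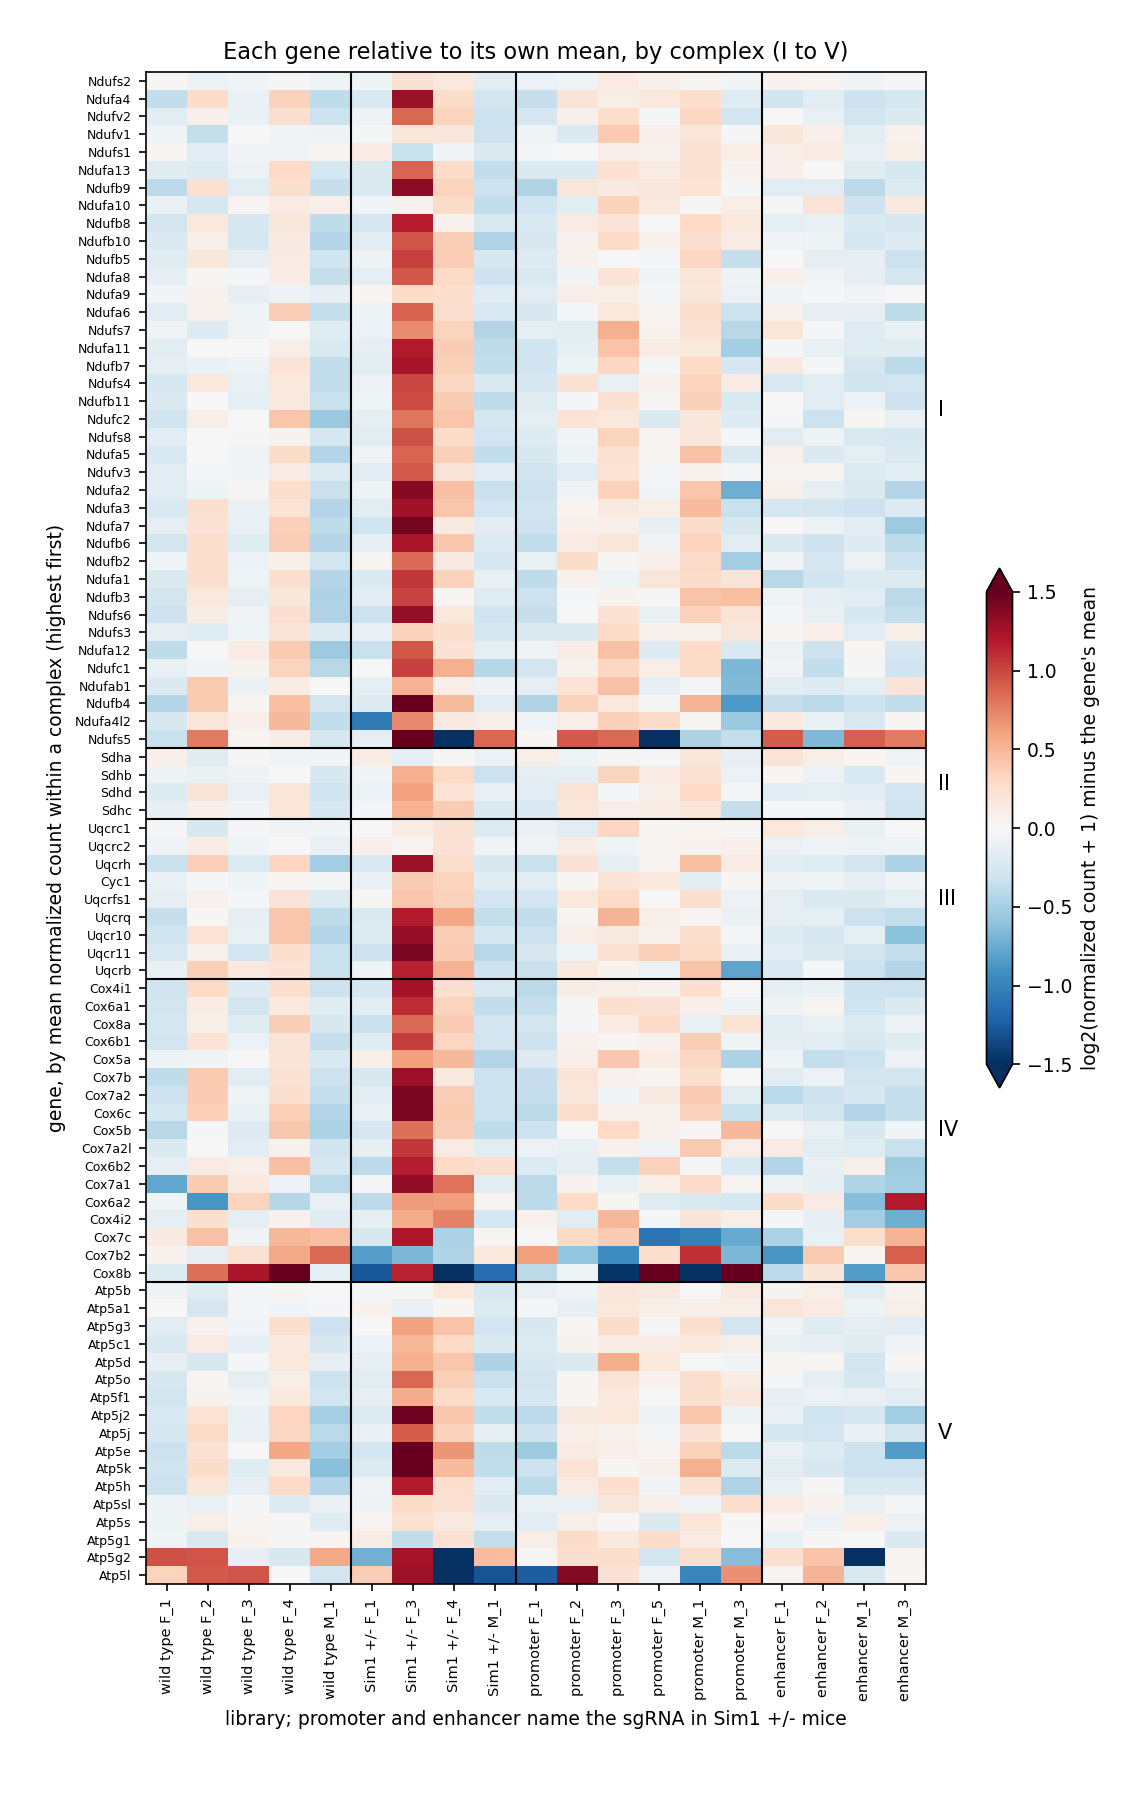
Deviation of each of the 85 genes from its own mean (log2, colours stop at 1.5) in 19 libraries, with genes ordered by mean count within complexes I to V. The column of Sim1 +/- F_3 is high in most rows, with Sdha, Atp5b, Atp5a1 and Ndufs1 near or below their mean, and Cox8b and Atp5l, 2 genes of few counts, are not highest there.

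By complex, the medians for Sim1 +/- against wild type were 0.29, 0.20, 0.29, 0.29 and 0.19 for complexes I to V, positive in 35 of 38, 4 of 4, 9 of 9, 14 of 17 and 14 of 17 genes. Without Sim1 +/- F_3 they were 0.04, 0.07, 0.06, 0.03 and 0.06. For the enhancer sgRNA against Sim1 +/- the medians were -0.30, -0.18, -0.46, -0.33 and -0.21, and without F_3 -0.06, -0.07, -0.18, -0.07 and -0.07. The promoter sgRNA against Sim1 +/- gave -0.17, -0.06, -0.17, -0.19 and -0.06, and without F_3 0.05, 0.03, 0.03, 0.07 and 0.08. All 5 complexes therefore changed sign together in that comparison when the library was left out.

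Comparisons that do not use the Sim1 +/- group kept the sign of their medians without Sim1 +/- F_3. That library reaches their fold changes only through the sex term of the shared fit, so the kept sign is no check of them. Against wild type, 75 of 85 genes were positive with the promoter sgRNA, with a median of 0.11 (0.10 when Sim1 +/- F_3 was left out of the shared fit), and the complex medians ran from 0.09 to 0.12. With the enhancer sgRNA 33 of 85 were positive, the median was -0.03, and the complex medians ran from -0.09 to 0.04. Between the guides, 72 of 85 were lower with the enhancer sgRNA, with a median of -0.13 and complex medians from -0.21 to -0.08. That median was -0.06 without promoter sgRNA M_1, where 33 of 85 were positive, and -0.18 without promoter sgRNA F_1. Promoter sgRNA M_1 also carried part of the difference from wild type, whose median was 0.04 without it, with 57 of 85 positive.

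**Figure D4:**
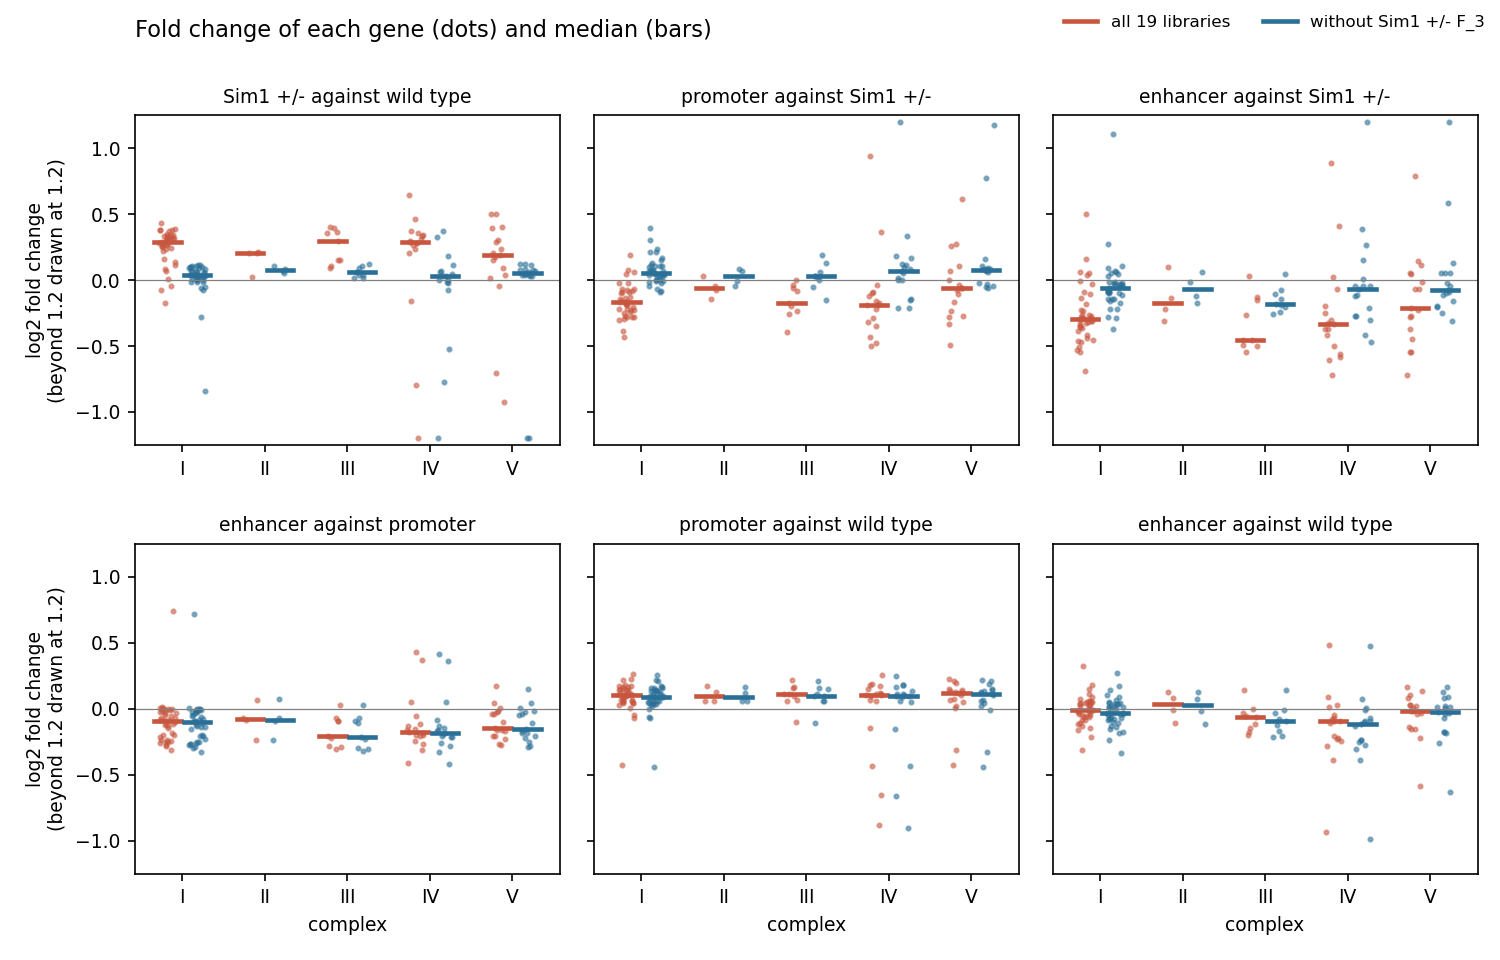
Log2 fold change of each gene (dots) and the median by complex (bars) for 6 comparisons, with all 19 libraries (red) and without Sim1 +/- F_3 (blue); promoter and enhancer name the sgRNA. In the 3 comparisons with the Sim1 +/- group the bars move towards or across 0 without that library, and in the others they stay within 0.03 of their place.

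The genes with the smallest p in each comparison did not form one role. For Sim1 +/- against wild type they were Cox7a1, Cox8b, Cox7b2 and Atp5h. Cox7a1, the heart and skeletal muscle isoform of subunit 7a, had the smallest. Cox7a1 measured 38, 86.6, 73.4, 62.1 and 49.8 normalised counts in the wild-type libraries and 64.7, 168, 117 and 58.5 in the Sim1 +/- libraries. Cox7a1 reached 49.7 to 80.8 (median 68.1) with the promoter sgRNA, and was 62.5, 59.8, 48.2 and 46 in the enhancer sgRNA libraries. Sim1 +/- F_3 and F_4 were the highest of all, while F_1 and M_1 lay inside the wild-type range. Its fold change was 0.65 (SE 0.29, adjusted p = 0.868), and 0.38 without F_3. For the enhancer sgRNA against Sim1 +/- it was -0.72 (SE 0.31, adjusted p = 0.678), and -0.47 without F_3.

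Cox8b, the muscle isoform of subunit 8, was counted at very low levels. Its normalised counts were 3.8, 8.8, 11.9, 39.4 and 4 in the wild-type libraries and 1.3, 11.2, 0 and 1.5 in the Sim1 +/- libraries. Promoter sgRNA values of Cox8b had a median of 3.75 (lowest 0, highest 24.7), beside 3.2, 5.3, 2.1 and 6.3 in the enhancer sgRNA libraries. Values were scattered in all groups, with wild type F_4 highest and Sim1 +/- F_4 and promoter sgRNA M_1 at 0. The fold change for Sim1 +/- against wild type was -1.82 (SE 0.89, adjusted p = 0.868) and -2.50 without F_3, on counts too low for its size to be read. Cox7b2, known from testis, was at -0.80 (SE 0.40, adjusted p = 0.868), and Atp5h, the d subunit of the stalk of ATP synthase, at 0.40 (SE 0.21, adjusted p = 0.868), or 0.12 without F_3.

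For the promoter sgRNA against Sim1 +/- the smallest p belonged to Atp5g1, one of the 3 genes that encode the same mature c subunit of the rotor ring. Normalised counts of Atp5g1 were 474, 423, 517, 492 and 512 in the wild-type libraries and 539, 384, 579 and 389.7 in the Sim1 +/- libraries. With the promoter sgRNA Atp5g1 ran from 494 to 605 with a median of 546, and it was 465, 506, 494 and 428 in the enhancer sgRNA libraries. All promoter sgRNA libraries but M_3 exceeded every wild-type and enhancer sgRNA library, and the Sim1 +/- values spread from the lowest of all, in F_3, to nearly the highest, in F_4. The fold change was 0.26 (SE 0.12, adjusted p = 0.934) against Sim1 +/-, 0.21 (SE 0.11, adjusted p = 1) against wild type and -0.21 for the enhancer against the promoter sgRNA. Without Sim1 +/- F_3 the first became 0.16. The other genes of this subunit, Atp5g3 and Atp5g2, had fold changes of -0.17 and 0.27 against Sim1 +/-. Uqcrb, which lies beside the ubiquinone site of complex III, was next among those that were lower, at -0.40 (SE 0.22, adjusted p = 0.934), and -0.15 without F_3. Cox6b2, a testis isoform, was at -0.43 (SE 0.24, adjusted p = 0.934), and -0.15 without F_3.

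For the enhancer sgRNA against Sim1 +/- the genes with the smallest p were Ndufa1, Cox7a1, Ndufb6 and Atp5j. Ndufa1, an X-linked accessory subunit needed to assemble the membrane arm of complex I, led them. Ndufa1 measured 1438, 1976, 1593, 1994 and 1232 normalised counts in the wild-type libraries and 1434, 3489, 2131 and 1544 in the Sim1 +/- libraries. The 6 promoter sgRNA libraries lay between 1283 and 2029 (median 1824), and the counts were 1254, 1354, 1453 and 1454 in the enhancer sgRNA libraries. The enhancer sgRNA libraries spanned a narrow range that every other group also reached. The fold change was -0.53 (SE 0.22, adjusted p = 0.678), and -0.29 without F_3. Ndufb6, another membrane-arm subunit, was at -0.55 (SE 0.24, adjusted p = 0.678) and -0.28 without F_3, and Atp5j, the F6 subunit of the stalk, at -0.45 (SE 0.20, adjusted p = 0.678) and -0.25. Without Sim1 +/- F_3, 0 of the 85 genes had an unadjusted p under 0.05 in this comparison.

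Between the guides the smallest p were those of Sdhd, Atp5g1, Cox4i2 and Uqcrfs1. Sdhd, a membrane anchor of complex II whose promoter is printed above, had the smallest of them. Its normalised counts were 3333, 4382, 3538, 4356 and 3116 in the wild-type libraries and 3589, 5819, 4400.1 and 3548 in the Sim1 +/- libraries. Sdhd reached 3432 to 4724 (median 3924) with the promoter sgRNA, and was 3443, 3458, 3411 and 3145 in the enhancer sgRNA libraries. The lowest promoter sgRNA value lay inside the enhancer sgRNA range and the others reached above it. The fold change was -0.23 (SE 0.13, adjusted p = 0.999). Cox4i2, an isoform of subunit 4 induced by low oxygen, was at -0.41 (SE 0.24, adjusted p = 0.999), and Uqcrfs1, the Rieske iron-sulphur protein, at -0.21 (SE 0.13, adjusted p = 0.999). Against wild type, Cox7c was at -0.65 (SE 0.35, adjusted p = 1) and Ndufv1, which binds NADH, at 0.18 (SE 0.11, adjusted p = 1) with the promoter sgRNA, while Cox6a2, the muscle isoform of subunit 6a, was at 0.49 (SE 0.33, adjusted p = 1) and Atp5a1, the alpha subunit of ATP synthase, at 0.16 (SE 0.11, adjusted p = 1) with the enhancer sgRNA. None of these exceeded the spread between libraries in the adjusted test.

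Isoform genes were followed because tissues choose between them. Cox6a2 was 62.7, 35.4, 83.1, 48.4 and 60.5 in wild type, 49.6, 103, 102 and 67.8 in Sim1 +/- and 79.5, 71.6, 41.9 and 152 with the enhancer sgRNA, the highest value standing in enhancer sgRNA M_3. Cox4i2 measured 30.4, 39.8, 30.2, 35 and 29.4 in wild type, 30.2, 49.7, 56.9 and 27.7 in Sim1 +/- and 32.8, 30.8, 23 and 19.8 with the enhancer sgRNA, with Sim1 +/- F_3 and F_4 the highest. Ndufa4l2, the hypoxia-induced relative of Ndufa4, was 35.2, 47.7, 44.3, 58.9 and 32.2, 19.5, 69.6, 46.1 and 44.7 and 46.6, 39.1, 35.6 and 42.8 in the same groups, and all of them overlapped. The 7 measured markers of striated muscle, whose cells use several of these isoforms, summed to between 706 and 1307 normalised counts, with 1307 in the highest Sim1 +/- library and up to 1216 with the enhancer sgRNA. Their part in the isoform values was not tested.

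**Figure D5:**
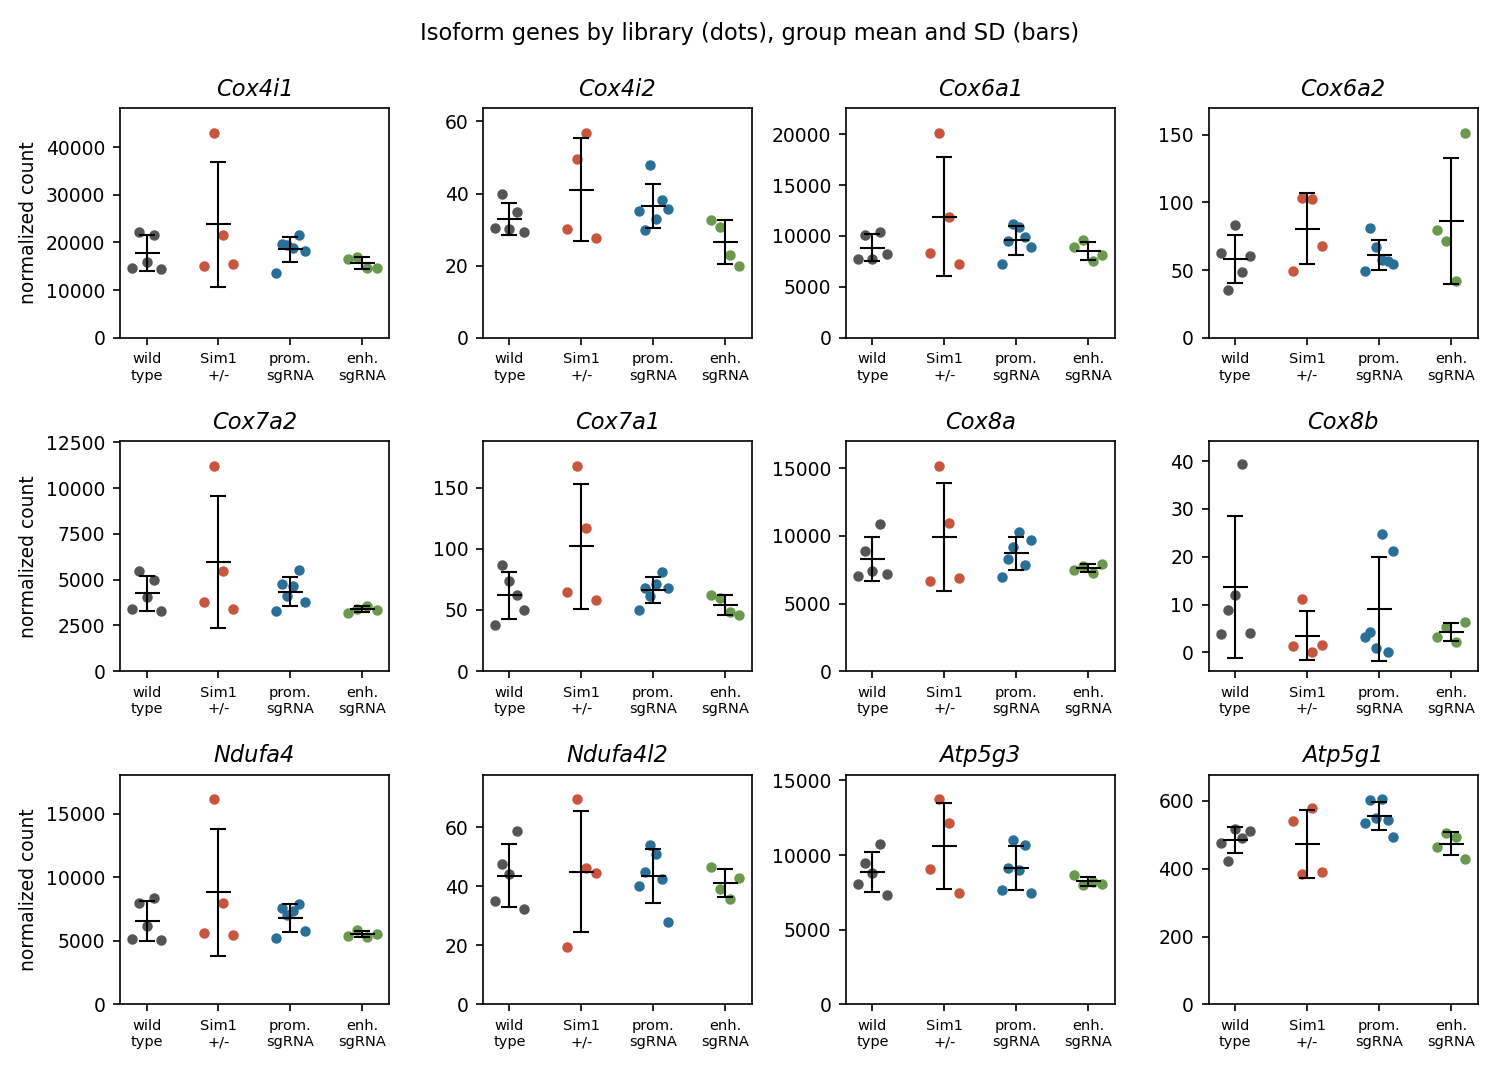
Normalised counts of 12 isoform genes in each library (dots) with group mean and SD (bars), with the y axis from 0 or just below it. In 10 of the 12 panels the highest Sim1 +/- dot is F_3 and in Cox4i2 and Atp5g1 it is F_4, and in every panel the groups overlap.

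Of the 85 genes, 10 had a mean below 100 normalised counts and 16 below 1000. Atp5l (mean 6.32), Cox8b (8.06), Ndufs5 (8.27) and Atp5g2 (16.3) were the lowest, with at most 15, 109, 19 and 38 recovered reads in any library. Among the 85, 9 have a pseudogene of their own name in RefSeq, Atp5l, Ndufs5, Cox7c and Ndufab1 among them. The sources used here do not say how reads shared with such copies were counted, so their levels are uncertain. The RNA kits do not mark strand as far as the labels say, and reads from an overlapping antisense gene cannot be told apart.

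Genes that work with the chain were read beside it. The 7 mitochondrially encoded mRNAs analysed here were lower in Sim1 +/- than in wild type in 7 of 7, with a median of -0.24, or -0.65 without Sim1 +/- F_3, opposite in sign to the nuclear genes. Against wild type they had medians of -0.21 with the promoter and -0.53 with the enhancer sgRNA, and 0 of 7 were called. Their library level was lowest in enhancer sgRNA F_1, at -1.202, and highest in wild type F_2 and Sim1 +/- F_3, at 1.11 and 1.09. The following counts are of positive fold changes for Sim1 +/- against wild type, with the count and median without Sim1 +/- F_3 in parentheses. The assembly factors of complex I were positive in 12 of 14 with a median of 0.17 (11 and 0.05), and those of complexes II to V in 23 of 32 with a median of 0.18 (15 and -0.01). Among mitochondrial ribosomal protein genes the count was positive in 74 of 76 with a median of 0.21 (64 and 0.05). Electron carriers and quinone enzymes were positive in 13 of 15 with a median of 0.09 (9 and 0.02), and citric acid cycle enzymes in 9 of 16 with a median of 0.01 (10 and 0.03). The ATP synthase inhibitor and carriers were positive in 6 of 7 with a median of 0.10 (6 and 0.05), and regulators of mitochondrial genes in 4 of 12 with a median of -0.04 (5 and -0.01). The sign of the median of the complex II to V assembly factors thus turned without that library. Ppargc1a was at -0.28 (SE 0.14) in that comparison. No gene of these lists was called in any comparison.

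Other RNA moved with the level of the chain in Sim1 +/- F_3. Cytosolic ribosomal protein genes (80) had a library level of 1.26 there, against -0.35 to 0.30 elsewhere, mitochondrial ribosomal protein genes 0.61, haemoglobin and other blood genes 1.802, astrocyte markers 0.48 and microglial markers 0.42, while the 12 neuronal markers stood at -0.59. Wild-type levels reached 0.52 for astrocyte markers, above Sim1 +/- F_3, and 1.29 for blood genes. They reached 0.07 for mitochondrial ribosomal protein genes and 0.09 for microglial markers, and fell to -0.32 for neuronal markers. The 5 blood genes summed to 5939 to 19995 normalised counts in Sim1 +/-, 2744 to 14160 in wild type, 2701 to 6538 with the promoter and 3072 to 7461 with the enhancer sgRNA. Citric acid cycle enzymes were at -0.05 and the regulators at 0.01 in that library, near their means over the 19 libraries. Counted in the same way, neuronal markers were positive in 2 of 12 with a median of -0.11 (8 and 0.03), astrocyte markers in 6 of 8 with a median of 0.04 (2 and -0.07) and pericyte and vascular smooth muscle markers in 6 of 9 with a median of 0.12 (4 and -0.18), so these 3 medians changed sign without F_3. Markers that kept their sign were oligodendrocyte in 1 of 8 with a median of -0.14 (0 and -0.21), microglial in 8 of 8 with a median of 0.30 (8 and 0.21), endothelial in 2 of 7 with a median of -0.11 (3 and -0.10), choroid plexus in 0 of 7 with a median of -0.84 (0 and -0.72), meningeal in 6 of 6 with a median of 0.35 (6 and 0.34), blood in 4 of 5 with a median of 1.38 (4 and 1.13) and striated muscle in 5 of 7 with a median of 0.18 (4 and 0.05). Cytosolic ribosomal protein genes were positive in 69 of 80 with a median of 0.34 (51 and 0.04). The part of these in the results on the chain was not tested, and in bulk tissue fewer cells of a type and less RNA per cell cannot be told apart.

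In the authors' deposited table, 0 of the 85 genes passed the false discovery rate of 0.05 in any of its 3 comparisons, where 19, 7 and 9 of all genes did for Sim1 +/- genotype, enhancer sgRNA and promoter sgRNA. The authors' deposited table gave a positive log2 fold change to 77, 28 and 48 of the 85, with medians of 0.17, -0.08 and 0.0058.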

How the data were processed

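RNA-seq of 19 hypothalamus samples was analysed from 1 deposited table. It holds normalised counts per gene (a signal that the authors scaled by a factor for each library and gave to 1 decimal), variance-stabilized log2 values, and log2 fold changes with p-values, all made by the authors, per the file headers and the values. The submitters' processing notes name CASAVA 1.8, STAR 2.5.2b, MACS2 2.1.1.20160309, DESeq2 1.16.1 and mm9, with no roles, and the counting tool, annotation and strand setting are not given in the sources used here. Because mm9 is not the build of the promoter table (RefSeq GRCm38.p6), coordinates are given for promoters only. Deposited peak lists were not used.

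Each library's values are multiples of 1 step, so whole reads were recovered (tolerance 0.0505 normalised counts) and used only in the alternative tests. The share of values that came out whole was at least 99.8% in every library, lowest in wild type F_4, whose step is the smallest and its depth the least certain.

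Genes with a mean of at least 1 (20505) were fitted with limma 3.58.1 (trend, R 4.3.3) on log2(normalised count + 1) over all 19 libraries, with group and sex, and adjusted by Benjamini-Hochberg at 0.05. A fold change on this scale understates the change of low genes. edgeR 4.0.16 (quasi-likelihood) and DESeq2 1.42.0 on recovered reads, another pseudocount, filters, scaling, covariates, the replicate label as a block, females only, fewer libraries and leaving out each library were alternatives. The fits were tested on simulated data. Tables and motif searches used Python 3.11.15 and pandas 2.3.3. Of the 85 genes 82 matched RefSeq by symbol.

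The genes, lists, alternatives and left-out libraries were chosen with earlier results of these data known. Named genes were those called, the 4 with the smallest p in each comparison, the highest and lowest by mean in each complex, and those on a list of core, catalytic and isoform genes. Atp5k, Uqcr11, Ndufa10, Ndufab1 and Ndufb4 fall outside that rule where named and were chosen after their values were seen.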

Additional observations from a re-analysis of the deposited data

Results flagged for a closer look

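Among the named genes and the 6 library levels (that of all 85 genes and of each complex), 53 values in 4 groups gave 212 sets of libraries, and in 11 of them 1 library lay far from the rest of its group by Dixon's test. Chance gives about 1 in 20, and 11 of 212 is close to that share, so those listed here may be chance. No library level was among the 11, so this test did not set Sim1 +/- F_3 apart from its group of 4 by level. Wild type F_2 was low for Atp5a1 (29736 normalised counts), Ndufv1 (4550.4) and Uqcrc1 (7871), which encode catalytic or core subunits of complexes V, I and III. Wild type F_4 was high for Cox8b, at 39.4. Sim1 +/- F_3 was high for Cox8b, at 11.2, and for Cox7a2l, a factor that joins complexes III and IV, at 4531. Promoter sgRNA F_1 was low for Atp5c1, the gamma subunit of ATP synthase, at 7198. With the enhancer sgRNA, M_1 was low for Atp5d, at 6089, and for Ndufs1, at 5373, M_3 was low for Sdhd, at 3145, and F_2 stood apart for Ndufs5, at 3.6, a gene of few reads.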

How the results depend on the processing

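No gene of the chain was called in any of the 198 fits (33 alternatives in each of 6 comparisons). Leaving out each library in turn, the median log2 fold change of the 85 genes ran from 0.05 (without Sim1 +/- F_3) to 0.42 (without Sim1 +/- F_1) for Sim1 +/- against wild type. It ran from -0.30 (without Sim1 +/- M_1) to 0.06 (without Sim1 +/- F_3) for the promoter sgRNA against Sim1 +/-, and from -0.45 to -0.08 without the same libraries for the enhancer sgRNA. The ranges were -0.18 to -0.06 for enhancer against promoter sgRNA, 0.04 to 0.18 for promoter sgRNA against wild type and -0.07 to 0.02 for enhancer sgRNA against wild type. Without the 5 libraries that stood apart in earlier results (F_5 and M_3 of the promoter sgRNA group, F_2 of the wild type, F_3 and F_4 of Sim1 +/-), the medians of the first 3 comparisons turned to -0.0896, 0.2407 and 0.0457, and Uqcrb for the promoter sgRNA against Sim1 +/- to 0.22. That was the 1 change of sign among 791 values, which cover only the 4 genes with the smallest p in each comparison. Those genes were chosen by p in the main fit, so this count says nothing on the signs of the other named genes. With the replicate block in place of sex the medians were 0.26, -0.08, -0.14, -0.06, 0.14 and 0.07, in the order above. Of 20 pairs of libraries with the same label 11 had r over 0.1 (range -0.14 to 0.23), as had 15 of 114 other pairs across groups, and 12 of 18 libraries correlated best with one of their own label. Libraries with the same label also share sex and are mostly close in age, so the labels as well as the values hint at a pairing. Not every pair passed and the labels name no shared litter or day, so the fit without the block was kept. The block moved the median for the enhancer sgRNA from -0.29 to -0.14 against Sim1 +/-. Against wild type it turned that median from -0.03 to 0.07. Counts at an unadjusted p under 0.05 varied: for Sim1 +/- against wild type 1 by limma, 4 by edgeR, 15 by DESeq2 and 22 with the stabilized values, and 10, 21, 27 and 6 for the enhancer sgRNA against Sim1 +/-. Leaving out each library moved them from 0 to 38 and from 0 to 41, and from 0 to 12 for the promoter sgRNA against Sim1 +/-, where 6 passed without promoter sgRNA M_1. The share of all genes was not counted by edgeR, DESeq2, the stabilized values or the fit without promoter sgRNA M_1. Their counts therefore cannot be told apart from a shift of all genes. The cause of this variation was not tested. Depth limits the 10 genes with a mean below 100.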
